A study of Botryllus schlosseri with 27 samples.

Results

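The 6 libraries described here are the whole-colony mRNA-Seq libraries of line SB825 at 3 years (SB825_g1, 3 libraries) and at 2 years (SB825_g2, 3 libraries), 6 of the 27 libraries of the series. They were chosen by line and age as labelled, with no measured value. Botryllus schlosseri is a colonial tunicate, and the whole series holds 3 lines (SB825, SMG and SMH) with 3 libraries each at 3 years, 2 years and 4 months. No animal was treated and no transgene was used. The 3 libraries of an age carry 1 genotype name and were taken from systems (groups of zooids) of a colony of that name. The 2-year-old colony is recorded as an F1 of the 3-year-old one, and the 4-month-old colony, SB825_g3, as an F1 of the 2-year-old one. Age, generation and genotype therefore cannot be told apart in this comparison, and every p-value below measures the spread between libraries of 1 colony, not between colonies.

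A Botryllus colony consists of genetically identical zooids that share a common tunic and an extracorporeal blood vascular network. The zooids are replaced in weekly asexual budding cycles, whereas the colony and its vessels persist for years. Vessel cells rest on a collagen-containing matrix, and Notch receptors, their jagged ligands, phagocyte lectins and clotting factors are vertebrate gene families with members in tunicates. RNA from whole colonies mixes gut, gonad, muscle, blood and vessel, so a change in the number of cells of a type and a change in RNA per cell cannot be told apart.

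The 6 libraries held 32884060 to 40178834 reads mapped to contigs of an EST assembly with 50106 contigs, and all counts were even, since both mates of each pair were counted. Correlations of log2 CPM (reads of a contig relative to the reads of its library) were 0.953 to 0.979 among the 3-year libraries, 0.983 to 0.988 among the 2-year libraries and 0.862 to 0.882 between ages. No library was a copy of another. The 3-year libraries were the less uniform group, and their 100 most abundant contigs took 26.6% to 39.9% of reads, compared to 22.1% to 23.7% at 2 years. After scaling by trimmed mean of M-values (TMM), 31492 contigs reached 1 CPM in at least 3 libraries and were tested. Names given to contigs are those of the best human homolog. They were at hand for 879 of 1998 contigs, which are only the first part of the study's list for old against young colonies. The rest of that list was not at hand. The list was chosen partly on these 3-year libraries, so the directions of named contigs are not independent evidence.

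A large part of the transcriptome differed between the 3-year and the 2-year colony. In total 11955 contigs (38%) passed a 10% false discovery rate (quasi-likelihood test of edgeR, Benjamini-Hochberg adjusted). Of these, 6143 (19.5% of those tested) were higher and 5812 (18.5%) were lower at 3 years. Higher contigs made up 51.4% of the calls. With library totals alone as the scale, the median log2 fold change of all contigs moved from −0.001 to −0.247. On that scale 13064 contigs were called and 3513 of them (26.9%) were higher, so the directions below are relative to the TMM scale. Counts of a list given below for library totals alone belong beside this split, not beside 19.5% and 18.5%. Most differences were small, with a median absolute log2 fold change of 0.303. Requiring a 2-fold difference as well left 4304 contigs (13.7%), 2368 higher (7.52%) and 1936 lower (6.15%). Among the 1332 tested contigs of the part at hand of the list of the study, 31.5% were higher and 17.4% lower (21.9% and 9.53% with 2-fold). The homolog lists below were drawn by name from this part and from the 10 contigs the study tabulated. These shares are therefore a nearer base for the lists than the shares of all contigs tested. The values of the 3 libraries of an age lay wholly above or below those of the other age for 14526 contigs (46.1%).

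**Figure D1:**
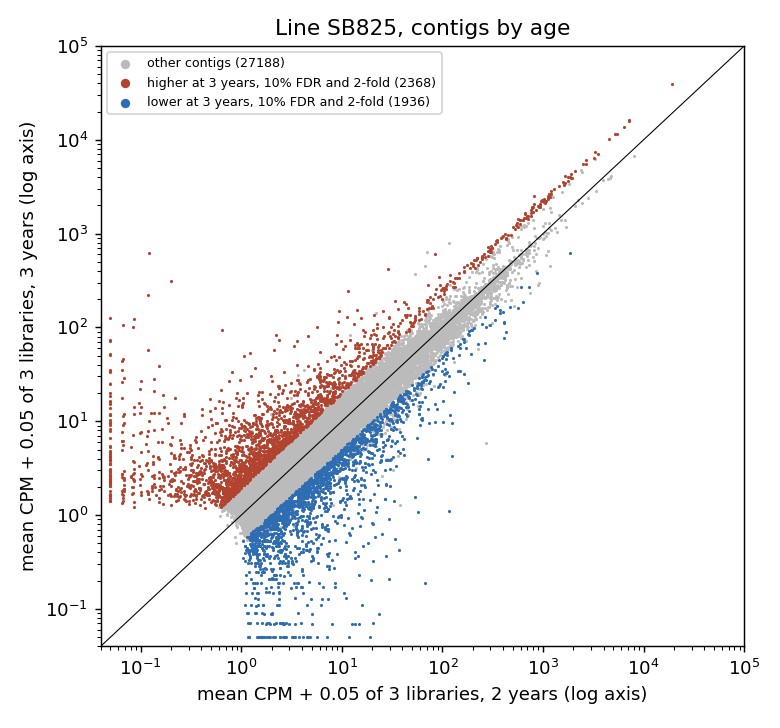
Mean CPM plus 0.05 of the 3 libraries at 3 years (y axis, log scale) against 2 years (x axis, log scale), each point 1 of 31492 contigs, with the diagonal as the line of equal level. The 2368 contigs higher and 1936 lower at 3 years past both thresholds lie off the diagonal over the whole range of levels, and the most abundant contigs form a band above it.

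With colonies of the 3 lines as replicates, reads of each colony summed and 3-year colonies set against 2-year colonies, no contig passed the 10% rate in edgeR (0 of 43076), and 628 (1.46%) had an unadjusted p under 0.05. DESeq2 called 51 contigs on the same sums, 28 of them among the contigs at least 2-fold apart in SB825 and in the same direction. The results below therefore describe the SB825 colonies.

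Many of the most abundant transcripts were higher at 3 years. Of the 265 contigs over 500 CPM at the age where they were higher, 116 (43.8%) passed both thresholds as higher at 3 years and 6 (2.26%) as lower, compared to 5.83% and 3.92% of the contigs between 50 and 500 CPM. The 116 contigs took 30.5%, 35.9% and 22.6% of all reads in the 3-year libraries and 17.5%, 16.9% and 14.8% in the 2-year libraries. At 4 months they took 15.5% to 19.8%, which overlaps the 2-year range. Only 1 of the 116 has a named homolog in the tables at hand, the mitochondrial enzyme 3,2-trans-enoyl-CoA isomerase (CAP3_round1_contig_358).

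These contigs varied together among the 3-year libraries. The most abundant contig of every library, CAP3_round1_contig_6491, was at 40020, 51710 and 24820 CPM at 3 years and at 20040, 20330 and 16500 CPM at 2 years. The groups did not overlap, but the lowest 3-year library stood close to the 2-year ones, and the log2 fold change was 1.04 (SE 0.26, adjusted p = 0.0181). CAP3_round1_contig_8086 (16970, 21520 and 10300 CPM against 7677, 7767 and 6125 CPM) and CAP3_round1_contig_6003 (16460, 20640 and 10190 CPM against 7707, 7796 and 6179 CPM) followed the same order. Over the alternative fits the lowest log2 fold changes were 0.75 for CAP3_round1_contig_6491, 0.89 for CAP3_round1_contig_8086 and 0.84 for CAP3_round1_contig_6003, all below 2-fold. None of them was called in a test against a 2-fold change (glmTreat). In 113 of the 116 contigs, replicate 2 was the highest 3-year library and replicate 3 the lowest. In line SMH, 95 of 115 tested were also called higher at 3 years and 2 lower, whereas in line SMG none was called higher and 19 were called lower. Of all contigs tested in SB825 and the other line, 24.9% were called higher and 23% lower in SMH. In SMG these shares were 16% and 15%. The part of this common movement in the other differences was not tested.

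A ribosomal contig of like abundance overlapped between the ages. The contig named for 40S ribosomal protein S21 (CAP3_round1_contig_5268), a component of the small subunit, was at 7187, 7497 and 5507 CPM at 3 years and 7350, 8207 and 8420 CPM at 2 years, with a log2 fold change of −0.25 (adjusted p = 0.261), and replicate 2 was also its highest 3-year library and replicate 3 its lowest. Of 9 tested contigs of ribosomal proteins and translation, 3 were higher and 1 lower (median −0.25), against 19.5% and 18.5% of all contigs tested. Without 2-year replicate 3, 1 was higher. With library totals alone, or with all 27 libraries in 1 fit, 2 were lower. Of the abundant contigs that were lower at 3 years, the unnamed CAP3_round1_contig_5548 was at 625, 689 and 555 CPM against 1714, 1836 and 2054 CPM (log2 fold change −1.58, SE 0.12, adjusted p = 4.1e-05). The unnamed Bot_rep_c55366 was at 434, 356 and 363 CPM against 730, 973 and 903 CPM (log2 fold change −1.18, SE 0.13, adjusted p = 3.1e-04). In both, the 3-year libraries were wholly below the 2-year libraries.

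Some transcripts had no read at 1 of the ages. Among contigs with a mean of 1 CPM or more at the other age, 80 had no read in the 3 libraries at 2 years and 41 had none at 3 years. At 5 CPM or more these numbers were 29 and 4. Of the 80 contigs without a read at 2 years, 56 also had none at 4 months, compared to 5 of the 41 without a read at 3 years. A count of 0 over 3 libraries allows up to 3 read pairs, or 0.0499 CPM at 2 years and 0.0597 CPM at 3 years, and folds below are lower bounds against that floor.

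The named contigs present only in the 3-year colony of this pair belong to different functions. FICD, the enzyme that attaches AMP to proteins of the endoplasmic reticulum (CAP3_round1_contig_635), was at 16.4, 16.4 and 16.0 CPM at 3 years and had no read at 2 years, at least 326-fold higher, and it had 1 read pair at 4 months. Serine racemase, which makes D-serine (Bot_rep_c37647), was at 9.61, 11.7 and 7.27 CPM, at least 191-fold higher. Placenta-specific gene 8 protein (Bot_c2100) was at 10.4, 8.98 and 9.14 CPM, at least 190-fold higher. A contig of the low-density lipoprotein receptor-related family of endocytic receptors (Bot_c33334) was at 2.66, 2.97 and 1.98 CPM, at least 50.8-fold higher. The last 3 had no read at 4 months either, and all 3-year libraries held reads of each contig.

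In the other lines the pattern of these contigs varied. FICD had 2416 read pairs at 3 years and 1 at 2 years in SMH, but 5 and 2 read pairs in SMG. Placenta-specific gene 8 protein had 223 and 0 read pairs in SMG, and 249 and 204 in SMH. The unnamed Bot_rep_c43324 was the most abundant contig without a read at 2 years, at 137, 135 and 102 CPM, at least 2500-fold higher, and had no read in SMG and 1 read pair in SMH. The unnamed Bot_rep_c37931 was at 66.0, 81.0 and 74.8 CPM, at least 1480-fold higher, while in SMH it had no read at 3 years and 1017 read pairs at 2 years.

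In the other direction, Bot_c2373, unnamed, had no read at 3 years and was at 16.3, 24.3 and 15.7 CPM at 2 years, at least 314-fold lower. A contig of tenascin-X, a matrix glycoprotein of connective tissue (Bot_c28615), had no read at 3 years and was at 3.59, 2.99 and 4.57 CPM at 2 years, at least 62.2-fold lower, and at 8.24 to 10.1 CPM at 4 months. It had no read in either colony of SMG or SMH.

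The study named 10 contigs of the cytoskeleton, collagen, cell division and cell death for its old against young comparison, which shares the 3-year libraries used here. Of these 10, 3 were lower and 1 was higher at 3 years than at 2 years, against 18.5% and 19.5% of all contigs tested. The 4 tubulins, actin and collagen did not pass the threshold on the TMM scale. Programmed cell death protein 5, a protein that promotes apoptosis in human cells (Bot_rep_c35773), was at 0.302, 0.607 and 0.698 CPM at 3 years and 21.8, 21.7 and 21.0 CPM at 2 years. No other contig of the 10 was so far apart, and the log2 fold change was −5.31 (SE 0.23, adjusted p = 2.9e-06), a 39.8-fold lower level. At 4 months it was at 54.4 to 58.5 CPM, above both other ages.

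The Arp2/3 complex nucleates branched actin filaments. Its contig (Bot_rep_c48230) was at 66.7, 62.8 and 61.0 CPM at 3 years and 89.8, 90.0 and 97.4 CPM at 2 years, wholly separate, with a log2 fold change of −0.54 (SE 0.08, adjusted p = 9.2e-04). Caspase 2, an apoptotic protease (Bot_c10337), was at 1.15, 0.607 and 0.757 CPM against 1.30, 1.495 and 1.40 CPM, a log2 fold change of −0.74 (SE 0.28, adjusted p = 0.0803) from 42 and 84 read pairs. This call was lost without 3-year replicate 2 or 3 and without each of the 2-year replicates in turn, with adjusted p between 0.125 and 0.207. Cell division cycle protein 23, a subunit of the anaphase-promoting complex (Bot_rep_c37856), was at 5.56, 6.61 and 6.46 CPM against 4.21, 4.75 and 4.75 CPM, a log2 fold change of 0.44 (SE 0.13, adjusted p = 0.0372). That call was lost without 3-year replicate 2 (adjusted p = 0.106) or 2-year replicate 1 (adjusted p = 0.127), and with either left out only 2 of the 10 contigs passed. It was also lost with library totals alone (log2 fold change 0.20, edgeR adjusted p = 0.439).

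Cytoplasmic actin (CAP3_round1_contig_6729) was at 8.28, 9.65 and 7.74 CPM at 3 years and 9.21, 9.13 and 9.81 CPM at 2 years, with overlapping groups and a log2 fold change of −0.13 (SE 0.12, adjusted p = 0.442). Collagen alpha 1 (II) chain, a fibrillar collagen (CAP3_round1_contig_8075), was at 159, 151 and 145 CPM against 169, 157 and 176 CPM, a log2 fold change of −0.14 (SE 0.08, adjusted p = 0.235). Neither difference passed the threshold on the TMM scale. Library totals alone called both lower, actin at −0.39 (edgeR adjusted p = 0.0618) and collagen at −0.39 (0.0489). Tubulins are the subunits of microtubules, and near-identical copies can share reads, so their contigs are uncertain individually. Tubulin alpha-1A (Bot_rep_c58495) had a log2 fold change of 0.21 (adjusted p = 0.211), alpha-3C/D (CAP3_round1_contig_7678) of 0.06 (adjusted p = 0.833), alpha-3E of 0.23 (adjusted p = 0.481) and beta-2C (Bot_rep_c57029) of −0.11 (adjusted p = 0.549). The groups overlapped in all 4. Library totals alone called beta-2C lower (log2 fold change −0.37, edgeR adjusted p = 0.0528). Of the 10 tested tubulin contigs, the median was −0.07 and edgeR called none on the TMM scale, against 38% of all contigs tested. At an unadjusted p under 0.05, 1 was higher and 0 lower. DESeq2 called 1 higher and 3 lower, and limma-voom and the fit of all 27 libraries called 3 lower each. Without 3-year replicate 3, the library with the highest summed tubulin level of its age, 2 were called higher and 4 lower.

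**Figure D2:**
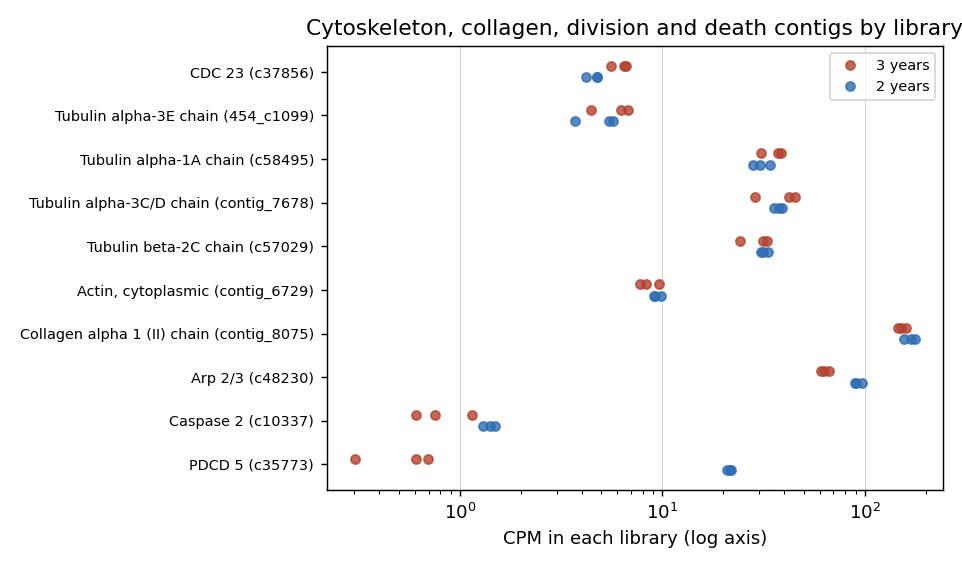
CPM in each library (x axis, log scale) of the 10 contigs, ordered by log2 fold change, with the 3 libraries at 3 years and the 3 at 2 years as points. Programmed cell death protein 5 is separated by a log2 fold change of −5.31, Arp2/3 by −0.54, and the points of both ages overlap for actin, collagen and the tubulins.

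Of 14 tested contigs of actin and muscle cytoskeleton, 3 were higher and 3 lower at 3 years (median −0.19), against 19.5% and 18.5% of all contigs tested. Library totals alone gave 6 lower, on a scale where 26.9% of the calls over all contigs were higher. Transgelin-2, an actin-binding protein (Bot_rep_c54695), was at 74.5, 76.3 and 63.0 CPM against 92.2, 101 and 105 CPM, a log2 fold change of −0.48 (SE 0.10, adjusted p = 0.00624). The groups did not overlap. Troponin T, of the striated muscle thin filament (Bot_rep_c51715), was at 129, 116 and 81.7 CPM against 114, 132 and 127 CPM, with overlapping groups (log2 fold change −0.19, adjusted p = 0.421). Nesprin-1, which anchors the nucleus to actin, rose on its contigs Bot_c26222 (log2 fold change 2.75) and Bot_c13376 (1.56).

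Contigs of the Notch pathway, in which membrane-bound jagged ligands activate Notch receptors on neighbouring cells, were among the strongest differences. Of 13 tested, 4 were higher and 6 lower at 3 years, and 6 of the lower ones but 1 of the higher ones differed by at least 2-fold (median −0.35), against 6.15% and 7.52% of all contigs tested. In the part at hand of the list of the study these 2-fold shares were 9.53% lower and 21.9% higher. Notch 1 (CAP3_round1_contig_9441) was at 1.27, 2.06 and 0.815 CPM at 3 years and 17.7, 18.6 and 20.7 CPM at 2 years, a log2 fold change of −3.78 (SE 0.29, adjusted p = 7.6e-05). A Notch 2 contig (Bot_rep_c45034) was at 1.45, 1.88 and 0.989 CPM against 13.3, 14.8 and 15.7 CPM, a log2 fold change of −3.34 (SE 0.21, adjusted p = 1.6e-05). In each, all 3-year libraries lay below all 2-year libraries by several-fold.

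Both contigs were higher still in the 4-month-old colony, Notch 1 at 238 to 304 CPM and Notch 2 at 177 to 240 CPM. The ligand jagged-1 went both ways. Its contig Bot_rep_c57656 was at 0.121, 0.243 and 0.175 CPM against 1.72, 2.30 and 2.31 CPM (log2 fold change −3.53, SE 0.32, adjusted p = 9.0e-05), with 25.7 to 31.6 CPM at 4 months. The more abundant jagged-1 contig CAP3_round1_contig_5371 was at 299, 437 and 446 CPM against 189, 168 and 239 CPM (log2 fold change 0.99, SE 0.19, adjusted p = 0.00644), with 1.84 to 2.34 CPM at 4 months. The most abundant Notch 2 contig, CAP3_round1_contig_6397, was at 146, 200 and 217 CPM against 169, 163 and 152 CPM, with overlapping groups (log2 fold change 0.22, adjusted p = 0.287). The number of Notch pathway contigs called higher was 2 rather than 4 without any 1 of the 2-year libraries, 1 with library totals alone and 0 with all 27 libraries in 1 fit, whereas the number called lower was 6 in each of these last 2 settings.

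Latrophilin-2 is an adhesion G protein-coupled receptor that in mammals is found at synapses and in vessels. Several of its contigs behaved like the lower Notch contigs. CAP3_round1_contig_5544 was at 0.0604, 0.303 and 0.116 CPM at 3 years and 28.7, 28.6 and 30.1 CPM at 2 years, a log2 fold change of −7.48 (SE 0.31, adjusted p = 4.4e-06) from 8 and 1752 read pairs. CAP3_round1_contig_5361 was at 1.75, 0.667 and 0.815 CPM against 14.1, 16.98 and 18.8 CPM (log2 fold change −3.94, SE 0.33, adjusted p = 1.6e-04). Bot_rep_c58172 was at 0.544, 0.789 and 0.582 CPM against 5.77, 7.37 and 8.05 CPM (log2 fold change −3.46, SE 0.22, adjusted p = 1.6e-05). At 4 months these contigs were at 103 to 132, 551 to 646 and 215 to 252 CPM, so their level fell with each step of age, generation or genotype.

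**Figure D3:**
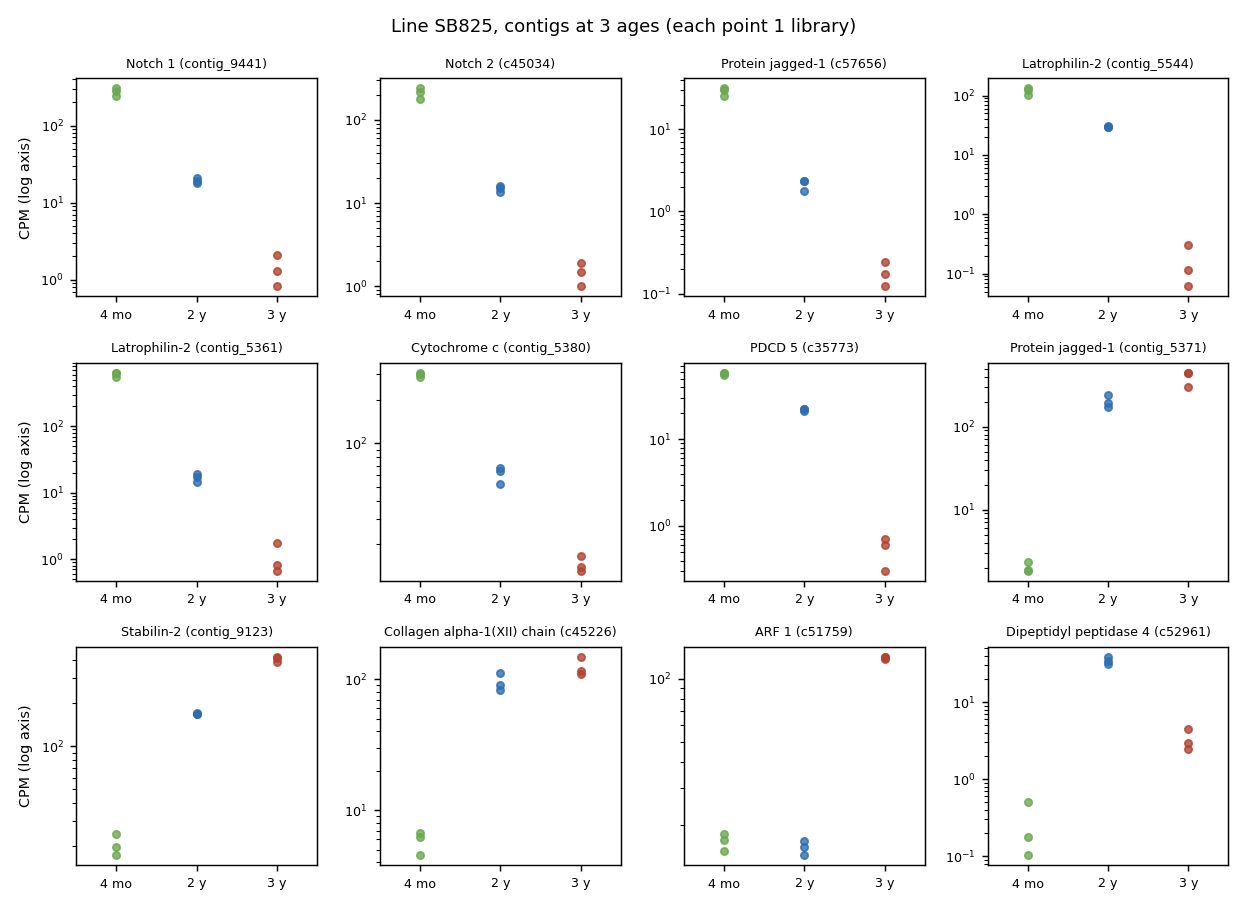
CPM (y axes, log scale) at 4 months, 2 years and 3 years in line SB825 for 12 contigs, each point 1 library, scaled over the 9 libraries of the line. Notch, latrophilin-2, cytochrome c and programmed cell death protein 5 contigs step down from 4 months to 3 years, jagged-1 (CAP3_round1_contig_5371), stabilin-2 and collagen XII step up from 4 months, ADP-ribosylation factor 1 is high at 3 years alone of these ages, and dipeptidyl peptidase 4 is highest at 2 years.

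The extracellular matrix contigs were called in both directions. Of 24 tested, 7 were higher and 5 lower (median 0.14), against 19.5% and 18.5% of all contigs tested. In the part at hand of the list of the study the shares were 31.5% and 17.4%. With library totals alone 4 were higher and 7 lower, on a scale where 26.9% of the calls over all contigs were higher. The fit of all 27 libraries called 3 higher and 3 lower. Their summed level was 470, 448 and 539 CPM at 3 years and 542, 506 and 440 CPM at 2 years. Tenascin-X (CAP3_round1_contig_315) was at 1.33, 1.27 and 1.80 CPM against 9.88, 9.56 and 10.9 CPM (log2 fold change −2.78, SE 0.17, adjusted p = 1.2e-05). A contig of tenascin, a matrix glycoprotein of remodelling tissue (Bot_c8109), went the other way, at 3.14, 2.12 and 2.33 CPM against 0.468, 0.160 and 0.226 CPM (log2 fold change 3.14, SE 0.37, adjusted p = 3.6e-04). Hemicentin-1 (Bot_rep_c52609, log2 fold change −0.80), a matrix protein of cell attachments, fell, and hemicentin-2 (Bot_rep_c49279, log2 fold change 0.41) rose.

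Collagen alpha-1(XII), which lies along fibrillar collagens (Bot_rep_c45226), was at 114, 148 and 110 CPM against 81.8, 109 and 88.8 CPM, with all 3-year values above all 2-year values by a small margin (log2 fold change 0.41, SE 0.15, adjusted p = 0.0672). This call was lost without 3-year replicate 2 (adjusted p = 0.189), 2-year replicate 1 (0.211) or 2-year replicate 3 (0.189), and with library totals alone (log2 fold change 0.15, adjusted p = 0.435). Its level at 4 months was 4.56 to 6.75 CPM. Tenascins were among the genes the study set aside as gonad genes.

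Among 14 tested contigs of vascular growth factors and clotting, 5 were higher and 1 lower at 3 years (median 0.31). The shares higher and lower were 19.5% and 18.5% of all contigs tested. They were 31.5% and 17.4% in the part at hand of the list of the study, from which these contigs were named. The lower contig was not called without 2-year replicate 2 or with all 27 libraries in 1 fit. Angiopoietin-related protein 2, a secreted glycoprotein (Bot_c13895), was at 16.0, 17.6 and 15.7 CPM at 3 years and 1.82, 2.46 and 1.90 CPM at 2 years, 7.97-fold higher (log2 fold change 2.99, SE 0.15, adjusted p = 4.5e-06). Tissue-type plasminogen activator, the protease that starts clot dissolution (Bot_rep_c45559), was at 12.4, 14.2 and 9.19 CPM against 1.20, 1.92 and 1.67 CPM, 7.45-fold higher (log2 fold change 2.90, SE 0.23, adjusted p = 4.4e-05). In both contigs the 3-year libraries were well apart from the 2-year ones, and the 4-month level was low, at 1.25 to 1.48 CPM and 0.701 to 1.04 CPM. The most abundant contig of the list, coagulation factor XII, a protease of the contact pathway (CAP3_round1_contig_8067), was at 79.9, 14.5 and 117 CPM against 67.6, 120 and 30.2 CPM. It varied within both ages as the digestive enzymes did, and was not called (log2 fold change −0.04, SE 0.94, adjusted p = 0.979).

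Digestive enzymes varied more between libraries of 1 colony than between the ages. The summed level of 89 tested contigs was 7752, 1426 and 11560 CPM at 3 years and 8630, 15160 and 3624 CPM at 2 years. Only 3 were called higher and 4 lower, against 19.5% and 18.5% of all contigs tested, although the median was −0.31. The number called lower was 6 in DESeq2 and limma-voom, 7 with library totals alone and 1 with all 27 libraries in 1 fit. Chymotrypsinogen B2, a pancreatic protease in mammals (CAP3_round1_contig_8388), was at 643, 75.1 and 1011 CPM against 634, 1187 and 258 CPM (log2 fold change −0.27, SE 1.11, adjusted p = 0.891).

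A list of peptidases and nutrient transporters was drawn up by homolog name for the brush border, the absorptive face of the gut. It also holds seprase, sialin and organic anion transporter contigs, and the tissue of its members was not tested. Of 46 tested, 7 were higher and 21 lower at 3 years (median −0.49), against 19.5% and 18.5% of all contigs tested. With all 27 libraries in 1 fit, 9 were lower. At least 2-fold differences were found in 5 higher and 8 lower contigs. The amino acid transporter subunit rBAT (CAP3_round1_contig_7926) was at 132, 104 and 148 CPM against 278, 292 and 223 CPM (log2 fold change −1.04, SE 0.15, adjusted p = 0.00132). Dipeptidyl peptidase 4, a cell-surface peptidase (Bot_rep_c52961), was at 2.90, 2.49 and 4.48 CPM against 33.6, 37.7 and 30.98 CPM (log2 fold change −3.37, SE 0.22, adjusted p = 3.2e-05). Both were wholly lower at 3 years. The most abundant contig of the list, glutamyl aminopeptidase (Bot_rep_c54104), was at 391, 293 and 349 CPM against 325, 392 and 261 CPM and overlapped (log2 fold change 0.08, adjusted p = 0.770). The summed level of the list was 1561, 1197 and 1667 CPM against 1802, 2007 and 1440 CPM, and 3-year replicate 2 and 2-year replicate 3, the libraries with the lowest digestive enzyme sums of their ages, were the lowest here too. The part of gut content in these differences was not tested.

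Contigs of sperm, testis and axoneme were low in 3-year replicates 1 and 2. Their summed level over 15 tested contigs was 45.8, 55.8 and 140 CPM at 3 years and 246, 113 and 213.2 CPM at 2 years, so that the groups overlapped through replicate 3 of the 3-year colony and replicate 2 of the 2-year colony. Testis-specific serine/threonine-protein kinase 1, a kinase of developing sperm in mammals (Bot_rep_c45338), was at 8.88, 12.3 and 49.8 CPM against 109, 47.7 and 92.0 CPM (log2 fold change −1.81, SE 0.84, adjusted p = 0.195). Otoancorin (CAP3_round1_contig_9042), which the study placed among gonad genes, was at 14.8, 16.9 and 40.6 CPM against 79.9, 37.7 and 73.9 CPM (log2 fold change −1.41, SE 0.54, adjusted p = 0.126). Axonemal dynein heavy chain 8, a motor of cilia and flagella (Bot_c274), was at 9.43, 10.8 and 16.8 CPM against 27.6, 13.1 and 24.8 CPM (log2 fold change −0.82, SE 0.35, adjusted p = 0.142). The median of the 15 contigs was −1.20, with 3 called higher and 2 lower, against 19.5% and 18.5% of all contigs tested.

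The number of the list called lower depended on the libraries and on the tool. Without 3-year replicate 3, 10 of the 15 contigs were called lower, the kinase with a log2 fold change of −2.97 (adjusted p = 0.0276) and otoancorin with −2.02 (adjusted p = 0.0433). With all 6 libraries, 8 of the 15 were called lower in DESeq2 (kinase adjusted p = 0.0714, otoancorin 0.0441), in limma-voom (0.0322 and 0.0349) and in edgeR without robust estimation (0.0761 and 0.0469), against 18.5% of all contigs tested in the comparison. The fit of all 27 libraries also called 8. Likewise 3 of 21 fertility genes named in the methods of the study were called lower with all libraries and 10 without this replicate, with 6 in DESeq2 and limma-voom and 5 without robust estimation or with all 27 libraries in 1 fit. Without 3-year replicate 2, 2-year replicate 1 or 2-year replicate 3, no contig of the sperm list was called lower. Of the 21 fertility contigs 4 were called higher, against 19.5% of all contigs tested. Axonemal dynein heavy chain 7 (Bot_c31603) rose, at 1.87, 1.94 and 1.34 CPM against 0.676, 0.534 and 0.633 CPM (log2 fold change 1.48, SE 0.26, adjusted p = 0.00292).

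**Figure D4:**
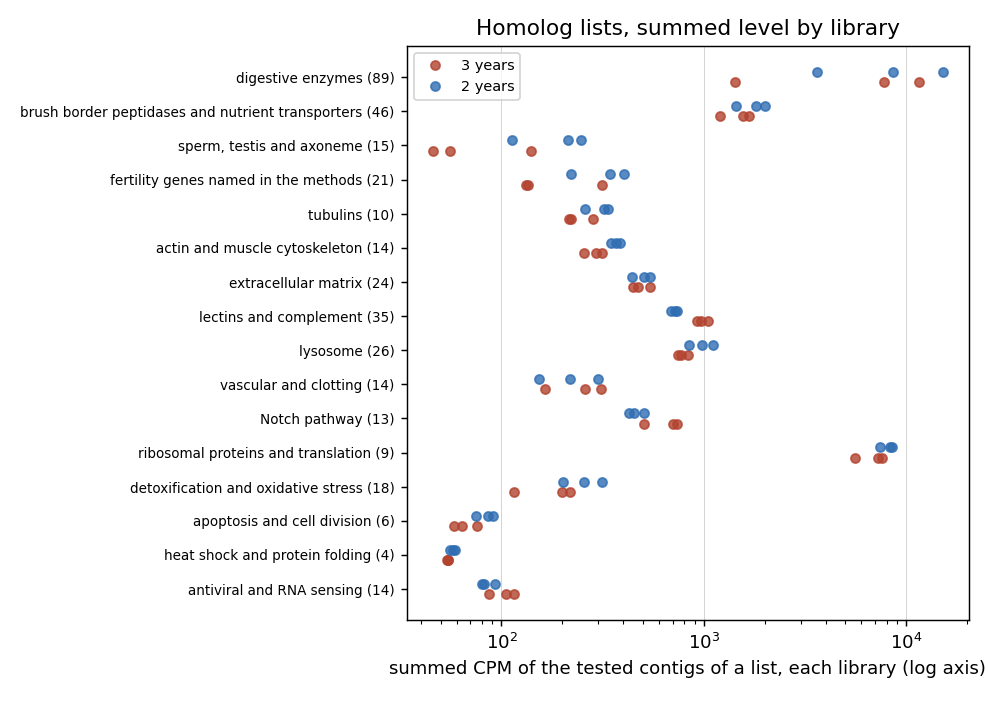
Summed CPM of the tested contigs of each homolog list (x axis, log scale), each point 1 library at 3 years or 2 years, with the number of contigs in brackets. Digestive enzymes range from 1426 to 15160 CPM within and across ages, the sperm list is lowest in 2 of the 3-year libraries, and lectins and complement lie above the 2-year libraries in all 3 at 3 years. This last difference is carried by the scavenger receptor stabilin-2 (CAP3_round1_contig_9123), and the list was called in both directions.

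Lectins and complement factors recognise foreign surfaces and are made by blood cells in tunicates. Their summed level over 35 tested contigs was 928, 967 and 1049 CPM at 3 years and 719, 737 and 685 CPM at 2 years, wholly separate. Of these contigs 10 were higher and 8 lower (median 0.06), against 19.5% and 18.5% of all contigs tested. In the part at hand of the list of the study the shares were 31.5% and 17.4%. The sum was carried by stabilin-2, a scavenger receptor for hyaluronan (CAP3_round1_contig_9123), at 380, 407 and 418 CPM against 165, 164 and 166 CPM (log2 fold change 1.28, SE 0.08, adjusted p = 1.3e-05). Complement receptor type 2 (Bot_rep_c40162) was at 5.86, 6.01 and 13.4 CPM against 0.572, 2.19 and 2.53 CPM (log2 fold change 2.25, SE 0.62, adjusted p = 0.0434). This call was lost without 2-year replicate 2 (adjusted p = 0.102) and with library totals alone (adjusted p = 0.11). Macrophage mannose receptor 1, an endocytic lectin, fell on Bot_c26247 (log2 fold change −1.73) and rose on Bot_rep_c44152 (1.22). The number called higher was 6 without 2-year replicate 2, 5 without 2-year replicate 3 and 4 with library totals alone (9 lower), and 5 were lower with all 27 libraries in 1 fit.

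Of 26 lysosome contigs, 5 were higher and 8 lower (median −0.03), against 19.5% and 18.5% of all contigs tested. Prosaposin, named proactivator polypeptide, gives rise to activators of lysosomal lipid breakdown, and its most abundant contig (CAP3_round1_contig_6910) was at 214, 186 and 182 CPM against 300, 340 and 265 CPM (log2 fold change −0.64, SE 0.11, adjusted p = 0.00337). Proactivator polypeptide-like 1 (CAP3_round1_contig_9707) was at 65.2, 93.3 and 36.8 CPM against 8.22, 21.6 and 10.5 CPM (log2 fold change 2.28, SE 0.55, adjusted p = 0.0370), a call lost without 2-year replicate 3 (adjusted p = 0.118). Lysozyme g-like protein 2, which cleaves bacterial walls (Bot_rep_c48891), was at 3.93, 5.10 and 3.38 CPM against 1.25, 0.961 and 1.22 CPM (log2 fold change 1.85, SE 0.22, adjusted p = 3.7e-04). Cathepsins L2 (Bot_rep_c52932, log2 fold change −0.71) and S (Bot_rep_c50737, −0.54), lysosomal proteases, fell and cathepsin B (Bot_c4263, 0.78) rose. The number of the list called higher was 3 without 2-year replicate 1 and 2 without 2-year replicate 3 or with library totals alone, and only 1 was lower with all 27 libraries in 1 fit.

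Of 18 detoxification and oxidative stress contigs, 6 were lower and 3 higher (median −0.28), against 18.5% and 19.5% of all contigs tested, or 1 higher without 2-year replicate 3. Cytochrome c, the electron carrier of the respiratory chain whose release activates caspases in mammals (CAP3_round1_contig_5380), was at 13.7, 13.04 and 16.4 CPM at 3 years and 66.0, 50.6 and 63.6 CPM at 2 years, 4.17-fold lower (log2 fold change −2.06, SE 0.13, adjusted p = 1.7e-05), and at 289 to 308 CPM at 4 months. Glutathione S-transferase Mu 1, a conjugating enzyme (Bot_rep_c57122), was at 0.665, 0.910 and 0.524 CPM against 6.14, 6.94 and 7.15 CPM (log2 fold change −3.27, SE 0.21, adjusted p = 1.9e-05). For both, the ages were wholly separate. The mitochondrial phospholipid hydroperoxide glutathione peroxidase, which reduces oxidised membrane lipids (Bot_rep_c48581), rose, at 7.13, 4.13 and 11.4 CPM against 1.82, 0.747 and 1.76 CPM (log2 fold change 2.38, SE 0.48, adjusted p = 0.0108).

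ADP-ribosylation factor 1 is a small GTPase that starts the budding of vesicles from the Golgi, and both of its contigs named here were sharply higher at 3 years. Bot_rep_c51759 was at 126, 126 and 124 CPM against 14.1, 15.4 and 16.5 CPM, 8.17-fold higher (log2 fold change 3.03, SE 0.09, adjusted p = 1.0e-06). Bot_rep_c53341 was at 21.2, 20.8 and 19.2 CPM against 1.82, 1.66 and 1.18 CPM, 13.2-fold higher (log2 fold change 3.72, SE 0.17, adjusted p = 3.4e-06). At 4 months they were at 15.1 to 18.1 and 1.25 to 2.05 CPM, at the 2-year level.

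At 4 months, most contigs past both thresholds lay nearer to their 2-year than to their 3-year level on the log scale. A contig beyond its 2-year level, on the side away from 3 years, counts as nearer to 2 years at any distance. This holds for the 439 and the 400 contigs given below, so the shares do not measure how alike the colonies were. Of the 2368 contigs at least 2-fold higher at 3 years, 2137 (90.2%) were nearer to their 2-year level at 4 months, and 439 had all 4-month libraries below both other ages. Of the 1936 that were higher at 2 years, 1278 (66%) were nearer to their 2-year level, and 400 had all 4-month libraries above both other ages. The Notch 1, Notch 2 (Bot_rep_c45034), jagged-1 (Bot_rep_c57656), latrophilin-2, cytochrome c and programmed cell death protein 5 contigs described above as lower at 3 years belong to these 400.

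Lines SMG and SMH, whose colonies share no library with SB825, gave a different list of contigs. At the 10% rate 9187 of 28732 contigs (32%) were called between 3 and 2 years in SMG and 14219 of 29228 (48.6%) in SMH. Of the SB825 contigs at least 2-fold higher at 3 years and tested in SMG, 51.7% had the same sign there, 24.9% were called in the same direction and 20.4% in the opposite one. In SMH these shares were 54.8%, 33.9% and 27.4%. For contigs lower at 3 years the same sign was found in 55.8% in SMG and 53.5% in SMH. In SMG 23.4% of them were called in the same direction and 21.5% in the opposite one, and in SMH 31.2% and 27.4%. Of all contigs tested in SB825 and the other line, 48.7% were positive in SMG and 51.4% in SMH. The shares of these called higher were 16% in SMG and 24.9% in SMH, and those called lower 15% and 23%. Tested as a difference between lines, the change between ages differed from that in SMG for 12715 of 34910 contigs (36.4%) and from that in SMH for 15261 (43.7%).

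A small set moved in the same direction in all 3 lines. Whether the set is larger than coincidence would give was not tested, since the matching share of all contigs was not computed. With colony sums as replicates, edgeR called no contig, so no member of the set passed there. The overlap of the set with the 51 contigs called by DESeq2 on these sums was not tested. Past both thresholds in each line, 42 of 1624 contigs higher in SB825 (2.59%) and 21 of 1177 lower (1.78%) were shared. Both ADP-ribosylation factor 1 contigs belonged to it, with log2 fold changes of 1.80 (Bot_rep_c51759) and 3.30 (Bot_rep_c53341) in SMG and of 1.48 and 2.20 in SMH. Tissue-type plasminogen activator (2.51 in SMG and 1.04 in SMH), lysozyme g-like protein 2 (1.75 and 2.97) and, among the lower ones, tenascin-X (CAP3_round1_contig_315, −2.97 and −3.97) also did.

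A further 3 contigs of this set were picked after their values were seen. Neuronal pentraxin-2, a secreted protein of synapses in mammals (Bot_rep_c45268), was at 241, 285 and 160 CPM at 3 years and 69.4, 84.2 and 99.9 CPM at 2 years in SB825 (log2 fold change 1.44, SE 0.24, adjusted p = 0.00475), with 2.5 in SMG and 4.22 in SMH. A second stabilin-2 contig (CAP3_round1_contig_9587) was at 66.0, 95.1 and 115 CPM against 42.3, 37.5 and 58.1 CPM (log2 fold change 1.00, SE 0.25, adjusted p = 0.0265), with 3.19 in SMG and 5.25 in SMH. The unnamed Bot_rep_c59961 was at 443, 481 and 346 CPM against 22.2, 31.5 and 31.8 CPM, 14.8-fold higher (log2 fold change 3.89, SE 0.19, adjusted p = 8.6e-06), with 1.54 in SMG and 1.14 in SMH. The 2 ages were wholly separate in all of them.

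**Figure D5:**
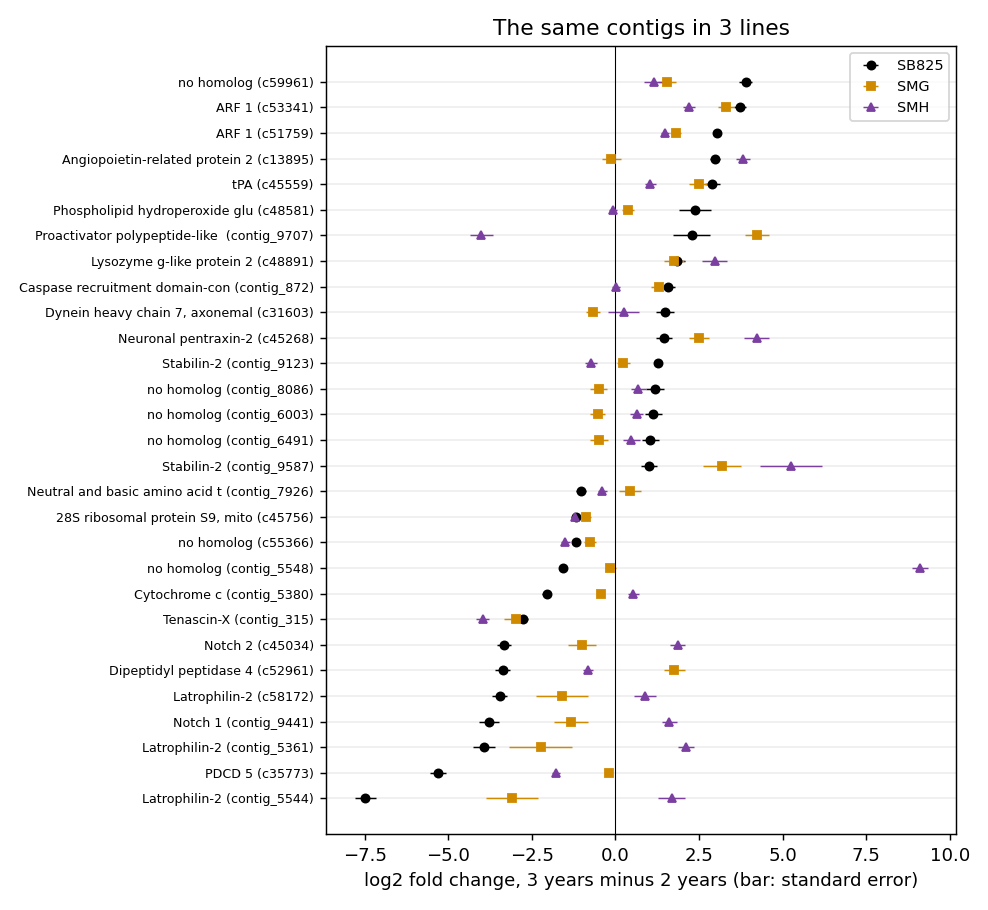
Log2 fold change between 3 and 2 years (x axis, bars standard errors) in SB825, SMG and SMH for the 29 contigs described here that were past both thresholds in SB825 and had reads at both ages and were tested in each line. ADP-ribosylation factor 1, tissue-type plasminogen activator, lysozyme g-like protein 2 and tenascin-X (−2.78, −2.97 and −3.97) keep 1 sign in the 3 lines, while Notch and latrophilin-2 contigs are negative in SB825 and SMG and positive in SMH.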

How the data were processed

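Total RNA of whole colonies of Botryllus schlosseri at stage B2 of the budding cycle was sequenced by the authors as paired-end poly(A) libraries. Trimmed reads were mapped by the authors with Bowtie 0.12.7 to an EST contig assembly, and they deposited raw read counts per contig (counted with SAMtools 0.1.18), with no normalization. Strand was not stated, so overlapping antisense transcripts cannot be separated. Columns were matched to samples by their titles.

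From the counts of the 6 SB825 libraries, contigs at 1 CPM or more in at least 3 libraries were kept. They were scaled by TMM and tested with edgeR 4.0.16 (glmQLFit, robust, glmQLFTest) in R 4.3.3, at a Benjamini-Hochberg adjusted p under 0.1. The 4-month levels were scaled over the 9 SB825 libraries. Libraries of SMG and SMH were fitted separately, the difference between lines in 1 fit over 18 libraries, and colony sums over 3 lines. The alternatives were other scalings, filters and tools (DESeq2 1.42.0, limma-voom 3.58.1), a replicate block and leaving out each library. Scripts were tested on simulated data. With 3 libraries against 3, an exact permutation test of 1 contig cannot go below 0.1.

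Named contigs were the 10 that the study tabulated, from each list the 2 most abundant contigs and up to 2 with the strongest change each way past both thresholds, the 10 largest named changes in each direction at 5 CPM or more, and the 5 largest of all in fold and in CPM difference. Members of the lists given without an adjusted p outside this rule were chosen after their values were seen. The members and lists were chosen with earlier results of these data known.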

Additional observations from a re-analysis of the deposited data

Results flagged for a closer look

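The change between 3 and 2 years in SB825 was tested against the same change in SMG and in SMH, by an interaction term in edgeR over the 18 libraries of the 3 lines at these ages, with p-values adjusted over 34910 contigs. Of the 66 contigs described, 49 differed from at least 1 line at the 10% rate, 30 from SMG, 43 from SMH and 24 from both. A contig without a read at 1 age in SB825 or in the other line was left out of that comparison, but is still among the 66. Over all contigs tested, 36.4% differed from SMG and 43.7% from SMH. Many of the 66 were chosen by their change in the SB825 libraries that also enter this test. Their counts therefore cannot be set against the shares of all contigs. Values below are the log2 fold change in SB825 minus that in the other line, so that a negative value is a lower change in SB825. The spread in this test is again that between libraries of 1 colony.

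The contigs that differed from both lines were these. Actin related protein 2/3 (Bot_rep_c48230) differed by −0.64 from SMG and by 0.73 from SMH. Programmed cell death protein 5 (Bot_rep_c35773) differed by −5.11 from SMG and by −3.52 from SMH. Tubulin beta-2C chain (Bot_rep_c57029) differed by −0.86 from SMG and by 0.42 from SMH. 40S ribosomal protein S21 (CAP3_round1_contig_5268) differed by 0.78 from SMG and by −2.03 from SMH. The unnamed CAP3_round1_contig_5548 differed by −1.43 from SMG and by −10.67 from SMH. Neurogenic locus notch homolog protein 1 (CAP3_round1_contig_9441) differed by −2.44 from SMG and by −5.37 from SMH. Neurogenic locus notch homolog protein 2 (Bot_rep_c45034) differed by −2.33 from SMG and by −5.19 from SMH. Protein jagged-1 (CAP3_round1_contig_5371) differed by −2.17 from SMG and by −2.46 from SMH. Neurogenic locus notch homolog protein 2 (CAP3_round1_contig_6397) differed by −1.62 from SMG and by −1.92 from SMH. Latrophilin-2 (CAP3_round1_contig_5544) differed by −4.37 from SMG and by −9.14 from SMH. Angiopoietin-related protein 2 (Bot_c13895) differed by 3.12 from SMG and by −0.80 from SMH. Dipeptidyl peptidase 4 (Bot_rep_c52961) differed by −5.13 from SMG and by −2.53 from SMH. Glutamyl aminopeptidase (Bot_rep_c54104) differed by −1.85 from SMG and by 0.79 from SMH. Dynein heavy chain 7, axonemal (Bot_c31603) differed by 2.14 from SMG and by 1.24 from SMH. Stabilin-2 (CAP3_round1_contig_9123) differed by 1.04 from SMG and by 2.03 from SMH. Proactivator polypeptide-like 1 (CAP3_round1_contig_9707) differed by −1.94 from SMG and by 6.30 from SMH. Cytochrome c (CAP3_round1_contig_5380) differed by −1.62 from SMG and by −2.57 from SMH. Phospholipid hydroperoxide glutathione peroxidase, mitochondrial (Bot_rep_c48581) differed by 2.00 from SMG and by 2.46 from SMH. ADP-ribosylation factor 1 (Bot_rep_c51759) differed by 1.23 from SMG and by 1.56 from SMH. DnaJ homolog subfamily B member 6 (Bot_rep_c54307) differed by 3.14 from SMG and by 1.56 from SMH. NFX1-type zinc finger-containing protein 1 (Bot_rep_c45717) differed by −4.70 from SMG and by −6.57 from SMH. Transgelin-2 (Bot_rep_c54695) differed by −0.59 from SMG and by 0.60 from SMH. Stabilin-2 (CAP3_round1_contig_9587) differed by −2.19 from SMG and by −4.24 from SMH. The unnamed Bot_rep_c59961 differed by 2.35 from SMG and by 2.77 from SMH.

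Some contigs are given for SMG only. The unnamed CAP3_round1_contig_6491 differed by 1.52 from SMG. The unnamed CAP3_round1_contig_8086 differed by 1.68 from SMG. The unnamed CAP3_round1_contig_6003 differed by 1.65 from SMG. Collagen alpha-1(XII) chain (Bot_rep_c45226) differed by −1.15 from SMG. Neutral and basic amino acid transport protein rBAT (CAP3_round1_contig_7926) differed by −1.49 from SMG. Proactivator polypeptide (CAP3_round1_contig_6910) differed by −1.34 from SMG.

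The rest are given for SMH only. Actin, cytoplasmic (CAP3_round1_contig_6729) differed by 2.24 from SMH. Cell division cycle protein 23 (Bot_rep_c37856) differed by 2.27 from SMH. Tubulin alpha-1A chain (Bot_rep_c58495) differed by 0.89 from SMH. Tubulin alpha-3C/D chain (CAP3_round1_contig_7678) differed by 1.65 from SMH. Tubulin alpha-3E chain differed by 1.93 from SMH. Protein jagged-1 (Bot_rep_c57656) differed by −4.98 from SMH. Latrophilin-2 (CAP3_round1_contig_5361) differed by −6.03 from SMH. Latrophilin-2 (Bot_rep_c58172) differed by −4.34 from SMH. Tenascin-X (CAP3_round1_contig_315) differed by 1.21 from SMH. Tenascin (Bot_c8109) differed by 5.53 from SMH. Tissue-type plasminogen activator (Bot_rep_c45559) differed by 1.87 from SMH. Testis-specific serine/threonine-protein kinase 1 (Bot_rep_c45338) differed by −2.08 from SMH. Lysozyme g-like protein 2 (Bot_rep_c48891) differed by −1.11 from SMH. Glutathione S-transferase Mu 1 (Bot_rep_c57122) differed by −3.82 from SMH. ADP-ribosylation factor 1 (Bot_rep_c53341) differed by 1.53 from SMH. RNF213 (CAP3_round1_contig_5735) differed by 0.59 from SMH. Troponin T, cardiac muscle (Bot_rep_c51715) differed by 0.93 from SMH. Caspase recruitment domain-containing protein 11 (CAP3_round1_contig_872) differed by 1.57 from SMH. Neuronal pentraxin-2 (Bot_rep_c45268) differed by −2.77 from SMH.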

How the results depend on the processing

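The 11955 calls of the comparison were 9323 to 14285 when each library was left out in turn, and between 11234 and 13516 under the other scalings, filters, tools and fits, except that a test against a 2-fold change (glmTreat) called 2281 contigs, 1 of the 10 contigs named by the study (4 in the comparison) and 35 of the listed contigs (137). Calls with at least a 2-fold difference numbered 4304, and 4046 to 4919 without 1 library, 2281 under glmTreat. Of the 10 contigs 2 to 5 were called without 1 library. Listed contigs called were 108 to 165 without 1 library. Colony sums gave 0 calls in edgeR, also with the line as a block, and 51 in DESeq2. Libraries with the same number did not deviate together (correlations −0.141, −0.027 and −0.045), and with a replicate block 11234 contigs were called, 4313 of them 2-fold apart, 3 of the 10 and 138 of the listed contigs. Of the contigs described, caspase 2 lost its call under the block (adjusted p = 0.122) and otoancorin (CAP3_round1_contig_9042) gained one (0.0853).

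Of 1122 values over 66 contigs and 17 alternatives, 1044 kept their direction and side of the threshold, 41 lost the call, 23 gained one and 14 changed sign, all 14 in contigs not called. With library totals alone the signs changed for Bot_rep_c58495 (−0.05), CAP3_round1_contig_7678 (−0.21), tubulin alpha-3E (−0.04), CAP3_round1_contig_6397 (−0.02) and Bot_rep_c54104 (−0.15). Without 1 library the values ranged across 0 for CAP3_round1_contig_7678 (−0.07 to 0.23), Bot_rep_c54104 (−0.06 to 0.23), CAP3_round1_contig_8067 (−0.62 to 0.53), CAP3_round1_contig_8388 (−0.95 to 0.37) and Bot_rep_c57029 (−0.20 to 0.02). With all 27 libraries in 1 fit, jagged-1 (CAP3_round1_contig_5371, adjusted p = 0.224), collagen XII (Bot_rep_c45226, 0.276), CAP3_round1_contig_6910 (0.35) and CAP3_round1_contig_9587 (0.183) were not called. The causes were not tested. Standard errors measure the spread between libraries of 1 colony, whereas floors cover counting error only. Levels under the floor of 3 read pairs cannot be told from 0.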

Other observations

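Of 14 tested contigs of antiviral and RNA sensing homologs, 6 were higher at 3 years and 2 lower (median 0.46), against 19.5% and 18.5% of all contigs tested. In the part at hand of the list of the study the shares were 31.5% and 17.4%. With library totals alone as the scale 3 were higher and 3 lower, 1 was lower with all 27 libraries in 1 fit, and 1 was lower when 3-year replicate 2 or 3 or any 1 of the 2-year libraries was left out. RNF213, a ubiquitin ligase (CAP3_round1_contig_5735), was at 61.2, 54.6 and 41.3 CPM at 3 years and 39.2, 36.1 and 33.3 CPM at 2 years, wholly higher, with a log2 fold change of 0.53 (SE 0.14, edgeR adjusted p = 0.0240). Its call was lost with library totals alone (log2 fold change 0.27, edgeR adjusted p = 0.164). The RNA helicase-like NFX1-type zinc finger-containing protein 1 (Bot_rep_c45717) was at 0.423, 0.485 and 0.407 CPM against 6.40, 6.57 and 5.52 CPM, 13.9-fold lower (log2 fold change −3.80, SE 0.19, adjusted p = 4.7e-06). In SMH that contig changed by 2.78 on the log2 scale.

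Of 4 tested heat shock and folding contigs, 2 were higher and 1 lower, against 19.5% and 18.5% of all contigs tested. Without 3-year replicate 3 or with library totals alone, 2 were lower. The co-chaperone DnaJ homolog subfamily B member 6 (Bot_rep_c54307) was at 2.60, 3.46 and 1.80 CPM against 0.208, 0.374 and 0.362 CPM (log2 fold change 3.04, SE 0.35, adjusted p = 3.0e-04). Of 6 contigs of apoptosis and cell division, 2 were higher and 2 lower, against the same shares of all contigs, or 1 higher with library totals alone. Besides those described above, caspase recruitment domain-containing protein 11, a scaffold of immune signalling (CAP3_round1_contig_872), was at 21.9, 19.5 and 12.6 CPM against 6.50, 5.98 and 5.70 CPM (log2 fold change 1.57, SE 0.20, adjusted p = 6.7e-04). Mitochondrial 28S ribosomal protein S9 (Bot_rep_c45756) was at 11.7, 11.04 and 15.1 CPM against 28.1, 29.7 and 27.6 CPM, and its log2 fold change was −1.17 (SE 0.13, adjusted p = 2.3e-04) in SB825, −0.89 in SMG and −1.21 in SMH.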
